A study of Mus musculus with 14 samples.

Results

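A set of 10 genes that sit on or around the transcription factor NRF2 was followed in mouse liver: Nfe2l2 and Keap1, the cystine transporter gene Slc7a11, the glutathione genes Gclc, Gclm, Gss and Gsr, the thioredoxin genes Txnrd1 and Srxn1, and the quinone reductase gene Nqo1. They were picked by gene symbol, each symbol had 1 row, and together they make 10 of the 55357 genes in the deposited files. All 10 passed the filter on low counts, which left 12915 genes. The model group was 8 livers of male C57BL/6 mice that received lipopolysaccharide (LPS, from the bacterial outer membrane) at 10 µg/kg and D-galactosamine (D-GalN, a sugar toxic to hepatocytes) at 300 mg/kg into the peritoneum, and were labelled as acute liver failure. The control group was 6 livers of mice of the same sex and strain that received saline and were labelled healthy. Mice of both groups were 5 to 6 weeks old before 1 week of acclimatisation, and livers were taken 24 h after injection. Both agents were given together, so what each did cannot be told apart. The labels do not state whether a library is 1 animal or a pool, so the spread that the p-values rest on may be technical.

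NRF2, the product of Nfe2l2, switches on genes that carry antioxidant response elements in their promoters or enhancers. KEAP1 is the adaptor through which a CUL3 ubiquitin ligase marks NRF2 for degradation, and electrophiles or oxidants that modify KEAP1 let NRF2 build up, so that much of its regulation takes place on the protein and not on the mRNA. Its targets import cystine, make and recycle glutathione, reduce thioredoxin and supply NADPH. In the liver, glutathione is the main defence of hepatocytes against reactive drug metabolites and peroxides.

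Between 10329469 and 16639972 reads per library were counted in genes in model, and between 7914120 and 14463540 in control. The 10 hepatocyte markers, among them Alb and Apoa1, were all detected, and they summed to between 88400 and 97600 CPM (counts scaled to a library of 1e+06 reads) in model and between 58000 and 79800 CPM in control. Most of this sum is Alb, which averaged 52290 CPM in model and 29440 CPM in control. Of the 10, 4 were higher, 0 lower and 6 neither, and the ranges of the groups overlapped for all 10. Apoa1, at 12630 CPM in model and 14860 CPM in control, was neither. The 12 neutrophil markers summed to between 1260 and 2880 CPM in model and between 4.44 and 17.1 CPM in control, and all 10 that could be tested were higher. The 10 monocyte markers summed to between 479 and 890 CPM in model and between 125 and 376 CPM in control. Summed markers were also apart between the groups for sinusoidal endothelium (232 to 455 CPM in model, 137 to 200 CPM in control). Of 9 tested, 3 were higher and 2 lower (Kdr and Clec4g). Lyve1 averaged 120 CPM in model and 4.77 CPM in control. Stellate cell sums were apart (379 to 788 CPM in model, 204 to 272 CPM in control). Of 9 tested, 6 were higher and 2 lower (Lrat and Colec11). Dcn averaged 367 CPM in model and 113 CPM in control. Cholangiocyte sums were apart (60.2 to 126 CPM in model, 31.3 to 56.4 CPM in control), with all 5 tested higher. Lymphocyte sums were apart (58.4 to 160 CPM in model, 8.3 to 21.1 CPM in control). Of 8 tested, 5 were higher and 0 lower, and Ccl5 averaged 83 CPM in model and 0.66 CPM in control. Summed markers of Kupffer cells overlapped (335 to 673 CPM in model, 386 to 576 CPM in control). This sum mixes markers that moved in opposite directions. Of 10 tested, 4 were higher (Marco, Adgre1, Timd4 and C1qb) and 3 lower (Slc40a1, Vsig4 and Cd5l). Over all genes tested, 26.6% were higher and 21.3% lower. Ly6g, which defines neutrophils, had no count in any control library. The part of these cells in the results below was not tested, and in bulk tissue a change in the number of cells of a type and a change of RNA per cell cannot be told apart.

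Of the 10 genes, 5 rose in model livers (Slc7a11, Srxn1, Nfe2l2, Txnrd1 and Gsr), 1 fell (Gclm), and 4 did not pass (Gclc, Keap1, Gss and Nqo1), at an adjusted p under 0.05 by edgeR's quasi-likelihood test with Benjamini-Hochberg adjustment over all genes tested. Over all genes, 47.9% were called, 26.6% higher and 21.3% lower, so 6 called of 10 is not far from the background. The groups did not overlap in CPM for 4 of the 10, against 23.2% of all genes: 3 lay higher (14.6% of all genes did) and 1 lower (8.63%). The median log2 fold change of the 10 was 0.58, against 0.0099 for all genes tested. Both counts depended on the processing. The count that rose was 3 with library totals or the replicate block. It was 4 with upper-quartile factors, limma-voom or no low-count filter, and without model 7 and model 8. It was also 4 without model 7, without model 8 and without any 1 of control 1 to control 5. The count that fell was 3 without model 7 and model 8, where Keap1 and Gss also passed, 3 with upper-quartile factors, and 2 with library totals, DESeq2, or an offset for gene length and GC content.

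**Figure D1:**
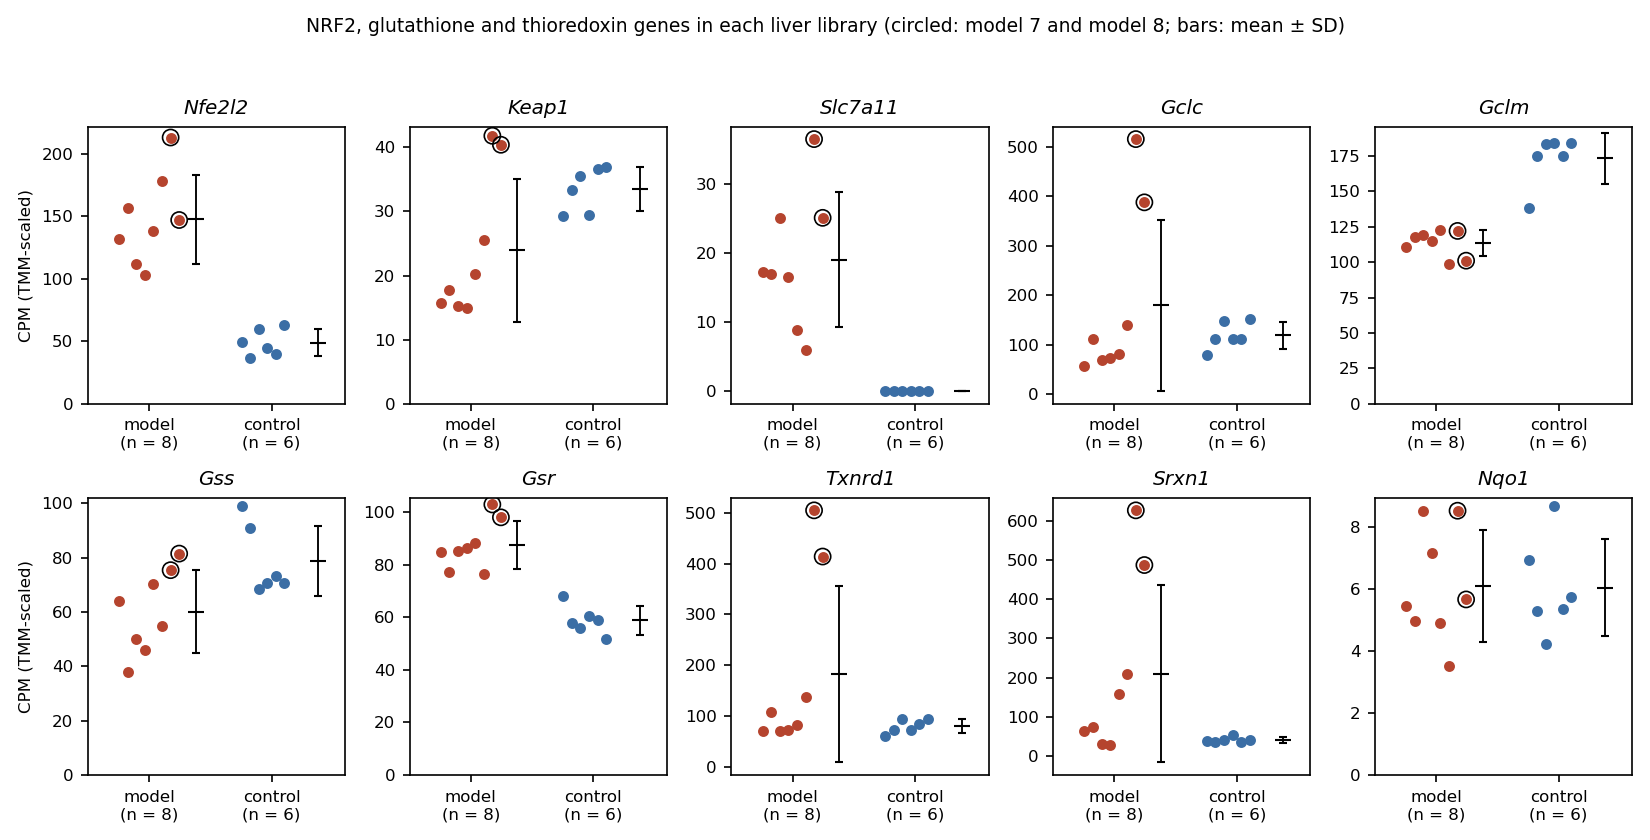
CPM (on TMM-scaled library sizes) of each gene in each library, model on the left of each panel (8 libraries) and control on the right (6 libraries), with the mean and SD as a bar and model 7 and model 8 circled. Nfe2l2, Slc7a11 and Gsr were higher in every model library than in any control library and Gclm was lower, while for Gclc, Txnrd1 and Srxn1 the highest points are model 7 and model 8.

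Nfe2l2, the gene of NRF2 itself, rose about 3.02-fold. It was at 103 CPM in the lowest model library, with a median of 143 and a highest value of 213, against 37.0, 46.9 and 63.0 CPM for the lowest, median and highest control library. Every model library was above every control library. This is a log2 fold change of 1.59 (SE 0.20, adjusted p = 5.25e-06), and its highest adjusted p was 3.46e-05 when any 1 library was left out. Its fold change was larger in size than that of 81.7% of all genes tested.

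Keap1, the gene of the NRF2 inhibitor, did not pass over all libraries with TMM factors. It was at 15.02, 19.0 and 41.8 CPM (lowest, median and highest) in model, against 29.3, 34.5 and 36.9 CPM in control. Of the 8 model libraries, 6 lay below every control library, while model 7 and model 8, at 41.8 and 40.4 CPM, lay above every control library. Its log2 fold change was -0.48 (95% interval -1.01 to 0.05, adjusted p = 0.126). Without model 7 and model 8 it was -0.83 (SE 0.18, adjusted p = 0.00127), and the call was also made when either was left out alone, with -0.64 and -0.62. Over all 14 libraries with upper-quartile factors Keap1 was also called lower (-0.66, adjusted p = 0.0271). Keap1 overlaps the antisense gene Gm16754 over 510 of its 4693 exonic bases, and the strand setting of the counts is not stated, so reads of the overlap cannot be assigned.

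The ratio of Nfe2l2 to Keap1 counts within a library does not depend on library scaling. It was between 3.65 and 8.89 in model livers, with a median of 6.91, and between 1.08 and 1.71 in control livers, with a median of 1.59. The groups did not overlap. Mean log2 ratios were 2.71 ± 0.415 for 8 model livers and 0.522 ± 0.311 for 6 control livers (± SD), a difference of 2.19 (two-sided exact permutation test over 3003 splits, p = 0.000333, the smallest these splits can give). The lowest model ratios were those of model 7 and model 8, 5.10 and 3.65.

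**Figure D2:**
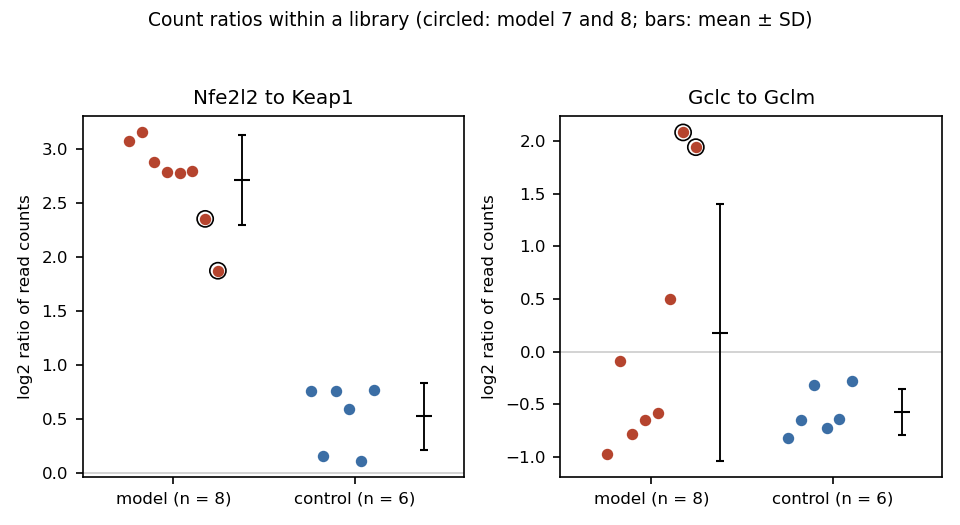
Log2 ratio of read counts within each library for Nfe2l2 to Keap1 (left) and Gclc to Gclm (right), model libraries before control libraries, with mean and SD bars and model 7 and model 8 circled. The Nfe2l2 to Keap1 ratio of every model library lies above those of all controls, while the Gclc to Gclm ratio is highest in model 7 and model 8 and has model 1 below and model 2 and model 6 above the control range.

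Of 16 listed genes whose products bind, repress or degrade NRF2 or act on KEAP1, 14 were tested, and 8 rose and 3 fell, around a median of 0.66 on the log2 scale. This is 78.6% called, against 47.9% of all genes (26.6% higher and 21.3% lower). This list and the other lists below were chosen with earlier results of these data known. Among the risers, 3 are small MAF proteins, which pair with NRF2 on DNA. Maff averaged 126 ± 48.0 CPM over 8 model livers and 4.01 ± 1.06 CPM over 6 control livers (± SD, as in all such pairs below), a log2 fold change of 4.97 (SE 0.34). Mafk rose by 2.57 (SE 0.33) and Mafg by 0.68 (SE 0.20) on the same scale. Bach1, a repressor that competes with NRF2 for the same DNA sites, was at 116 ± 69.4 CPM in model and 17.2 ± 5.51 CPM in control (log2 fold change 2.75, SE 0.43). All model values of Maff, Mafk and Bach1 lay above all control values. Model 3 and model 4 were the lowest model libraries for Bach1, at 36.0 and 25.8 CPM, against 80.3 to 215 CPM in the other 6.

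The 3 that fell have unlike roles. They were Btrc, an F-box protein that recognises phosphorylated NRF2 (log2 fold change -1.41, SE 0.27), Rbx1, the RING subunit of cullin ligases (-0.81, SE 0.27), and Dpp3, a peptidase that binds KEAP1 and can displace NRF2 from it (-0.77, SE 0.18). Other genes of NRF2 degradation rose: Fbxw11, the close relative of Btrc, by 0.94 (SE 0.26) and Syvn1, a ubiquitin ligase of the endoplasmic reticulum, by 1.65 (SE 0.35). The call of Rbx1 was lost without control 1 or control 4 (adjusted p up to 0.0628) and without model 7 and model 8 (0.0674). Cul3, the scaffold of the KEAP1 ligase, did not pass (0.30, SE 0.25, adjusted p = 0.331). Scaled by library totals, 4 genes of the list were called higher and 3 lower.

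Slc7a11, the light chain of the cystine and glutamate exchanger that brings in cystine for glutathione synthesis, was read in every model library and in no control library. Slc7a11 had 1999 counts in the 8 model libraries together and 0 in the 6 control libraries. Its level was 6.03 CPM in the lowest model library, 17.1 at the median and 36.5 in the highest, which was model 7. Set against a floor of 3 counts over the control group, 0.0401 CPM, Slc7a11 was at least 474.8-fold higher in model (adjusted p = 1.94e-07). The floor covers counting error only. Among model livers, the 25.1 CPM of model 3 and of model 8 came next to model 7, and model 6 was lowest.

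The promoter of Slc7a11 is shown because this gene changed most of the 10 and because its window holds no match to the antioxidant response element core. The sequence is from RefSeq on GRCm38.p6, chr3:50443614-50443863 on the minus strand, and covers the 250 bases before the start. Capitals mark both matches to TGATGNAA, the core of amino acid response elements, which bind ATF4 in the response to amino acid shortage.
Slc7a11 promoter: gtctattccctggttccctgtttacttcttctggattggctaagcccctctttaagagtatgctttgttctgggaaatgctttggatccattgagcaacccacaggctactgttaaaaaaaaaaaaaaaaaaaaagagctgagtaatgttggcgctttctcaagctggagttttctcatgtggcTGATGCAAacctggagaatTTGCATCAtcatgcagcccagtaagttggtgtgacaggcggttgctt
The match on the gene's own strand begins at position -66 from the start, and the other, which reads on the opposite strand, at position -47. The motif was searched on both strands of windows of 300 bases, and 3.97% of the 32851 windows in the table hold it. A match in a window is a description of its letters.

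Among genes listed for cystine and cysteine transport other than Slc7a11, 5 of 7 tested were higher and 0 lower (71.4% called, against 47.9% of all genes and 26.6% called higher), and the median of the 7 was 2.18 on the log2 scale. Slc3a2, the heavy chain that carries the Slc7a11 protein to the membrane, averaged 73.6 ± 15.8 CPM in model and 13.2 ± 3.63 CPM in control, a log2 fold change of 2.48 (SE 0.22, adjusted p = 7.00e-08). The lowest model library was at 50.01 CPM and the highest control library at 18.4 CPM. Slc1a5 and Slc38a2, carriers of neutral amino acids, rose by 2.54 (SE 0.24) and 2.18 (SE 0.40). Slc1a4 and Slc38a1 were called higher at low levels, with means of 3.03 and 2.89 CPM in model, against 1.04 and 0.53 CPM in control. Slc3a1, the heavy chain of another cystine carrier, did not pass (0.38, SE 0.25), and neither did Ctns (-0.16, SE 0.34). Slc7a9 had no count in any library, and Slc1a1 was left out by the filter. The list as a whole thus does not stand for cystine import.

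The 4 genes of glutathione synthesis and recycling did not move together. Glutamate-cysteine ligase makes the precursor dipeptide and sets the pace of glutathione synthesis. Gclc codes for its catalytic subunit and Gclm for the modifier subunit that makes the enzyme more efficient. Gclm fell in every model liver. It was at 98.6, 117 and 123 CPM (lowest, median, highest) in model, against 138, 179 and 184 CPM in control. The lowest control value, control 1, stood apart from the other controls, which lay between 175 and 184 CPM. Gclm had a log2 fold change of -0.61 (SE 0.14, adjusted p = 0.00182), and the call held in all alternatives run. Gclm shares 296 of its 6291 exonic bases with Gm17494 on the other strand and 244 with the pseudogene Gm6061 on its own.

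Gclc, by contrast, spanned a wide range in model livers. It was at 56.4 CPM in the lowest model library, with a median of 96.3 and a highest value of 516, against 78.2, 112 and 151 CPM in control. Model 7 and model 8, at 516 and 388 CPM, were above all controls, 3 model libraries were below all controls and the other 3 lay among them. Gclc had a log2 fold change of 0.60 (95% interval -0.39 to 1.58, adjusted p = 0.308). Without model 7 and model 8 it was -0.37 (SE 0.24, adjusted p = 0.235), with no call in either direction.

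The count ratio of Gclc to Gclm was between 0.508 and 4.23 in model, with a median of 0.793, and between 0.57 and 0.82 in control, with a median of 0.641. It was 4.23 and 3.83 in model 7 and model 8 and 1.42 in model 6, and the other 5 model livers were between 0.508 and 0.94. The difference of the mean log2 ratios, 0.751, did not pass (two-sided exact permutation test, p = 0.194). The SD of the log2 ratio was 1.22 in model and 0.22 in control. Without model 7 and model 8 the difference was 0.142.

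Gss, glutathione synthetase, which adds glycine in the last step, was at 37.9, 59.5 and 81.5 CPM in model (lowest, median, highest) against 68.3, 72.0 and 99.0 CPM in control. The ranges overlap, and 5 of 8 model libraries lay below all controls. This gave a log2 fold change of -0.39 (95% interval -0.79 to 0.01, adjusted p = 0.098). The gene passed as lower with library totals (adjusted p = 0.0167), upper-quartile factors (0.018), DESeq2 (0.0379) and the length and GC offset (0.0424). It also passed without model 7 and model 8 (0.0208) and with the replicate block (0.0453). It did not pass with RLE factors (0.0548), limma-voom (0.0767) or no low-count filter (0.178), or without model 3 and model 4 (0.249). None of the 14 fits that leave out 1 library called it (adjusted p between 0.0527 and 0.21), so its call depends on the processing. Gss overlaps Acss2 over 395 of its 5915 exonic bases on the other strand, besides its antisense genes Gssos1 and Gssos2.

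Gsr, glutathione reductase, which turns oxidised glutathione back with NADPH, rose 1.49-fold. Its lowest, median and highest model values were 76.6, 85.9 and 103 CPM, against 51.8, 58.4 and 68.3 CPM in control. No model value fell within the control range. Gsr had a log2 fold change of 0.57 (SE 0.14, adjusted p = 0.0032). With library totals, which put the median of all genes at -0.232 on the log2 scale, it was 0.35 (adjusted p = 0.0772), and the call was lost.

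Among 21 tested genes of glutathione turnover and use, out of 23 listed, 4 rose and 5 fell, and the median was -0.21 on the log2 scale. The 42.9% called is near the 47.9% of all genes, and without model 7 and model 8 the count of higher genes was 2. Chac2, which degrades glutathione in the cytosol, fell most, with 18.3 ± 9.51 CPM in model against 69.6 ± 32.4 CPM in control (log2 fold change -1.93, SE 0.37). The model values of Chac2 were lowest in model 7 and model 8, at 4.77 and 8.28 CPM, and no model library reached the lowest control, at 38.7 CPM. Glrx5 and Glrx2, glutaredoxins of mitochondria, fell by 1.07 (SE 0.27) and 0.94 (SE 0.25). Cndp2, a dipeptidase that can split cysteinylglycine, rose to 69.6 ± 10.6 CPM in model, against 24.1 ± 6.14 CPM in control (1.53, SE 0.19). Ggt1 and Ggt5, which cleave glutathione or its conjugates outside the cell, were also called higher at low levels. Their means were 1.34 and 3.91 CPM in model, against 0.0858 and 1.34 CPM in control. Ggt6, of the same family, was called lower, at 5.2 CPM in model and 8.7 CPM in control (log2 fold change -0.74, SE 0.26). With library totals, 11 genes of this list were called lower.

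Txnrd1, cytosolic thioredoxin reductase, a selenoprotein that reduces thioredoxin with NADPH, was called higher by a narrow margin. It was at 69.7, 94.97 and 505 CPM (lowest, median, highest) in model, against 59.6, 78.2 and 94.7 CPM in control. Only model 2, model 6, model 7 and model 8 lay above all controls. The fitted log2 fold change was 1.20 (SE 0.46, adjusted p = 0.0409). The call was lost without model 7 (log2 fold change 0.79), without model 8 (0.92) and without any 1 of control 1 to control 5 (1.13 to 1.26), with adjusted p up to 0.106. Without both of the high libraries the log2 fold change was 0.24 (SE 0.21, adjusted p = 0.384), and limma-voom gave 0.75 (adjusted p = 0.154). Library totals (1.02), upper-quartile factors (1.00) and the absence of a low-count filter (1.21) also ended the call, with fold changes nearer to the one reported.

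Srxn1, sulfiredoxin, which repairs peroxiredoxins that peroxide has over-oxidised, had the widest spread of the 10. In model it was at 26.4, 117 and 628 CPM (lowest, median, highest), against 33.8, 37.8 and 53.6 CPM in control. Model 3 and model 4, at 30.4 and 26.4 CPM, lay below all controls, and the other 6 model livers lay above all controls. Srxn1 had a log2 fold change of 2.40 (SE 0.63, adjusted p = 0.00475). Without model 7 and model 8 it was 1.28 (SE 0.43, adjusted p = 0.0229), smaller but still called.

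The core of the antioxidant response element, TGACNNNGC, was looked for on both strands of the RefSeq promoter windows (GRCm38.p6, 250 bases before to 50 after a start). Of the 10 genes, 8 had a window, and 12.4% of all 32851 windows hold the core. The matches are shown so that genes that rose (Nfe2l2, Txnrd1 and Srxn1) can be set beside the gene that fell (Gclm). Capitals mark the core, and each sequence is written on the strand on which the core reads forward.
Nfe2l2, chr2:75704885-75704913, minus strand: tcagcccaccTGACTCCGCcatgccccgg
Gclm, chr3:122245413-122245441, minus strand: tcgtgagagtTGACGGTGCgcccgggagc
Txnrd1, chr10:82859104-82859132, minus strand: cgtgtcagaaTGACAAAGCaaaaatccag
Srxn1, chr2:152105542-152105570, minus strand: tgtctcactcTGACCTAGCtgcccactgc
Counted from the start, the cores lie at -240 in Nfe2l2, -134 in Gclm, -92 from the second of 3 annotated starts of Txnrd1, and 29 bases into Srxn1. The windows of Keap1, Gss, Slc7a11 and Nqo1 hold no match to these letters. The other 2 starts of Txnrd1 have none either. A core was thus present in 3 genes that rose and in the gene that fell.

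Of 18 listed and tested genes of the rest of the thioredoxin system, 1 rose and 4 fell, or 27.8% called against 47.9% of all genes, and the median was -0.29 on the log2 scale. Over all genes 21.3% fell. The count of lower genes was 2 without control 1, without control 2, without control 4, or without model 7 and model 8. Msrb3, a methionine sulfoxide reductase, rose by 1.47 (SE 0.19), while Msrb1 and Msrb2, of the same family, fell by 0.88 (SE 0.31) and 1.00 (SE 0.33). Txnl1, a thioredoxin-like protein, fell by 0.45 (SE 0.18, adjusted p = 0.0423), a call that was lost in 8 of the 14 fits that leave out 1 library. Msrb1 lost its call without control 1, control 2 or control 4, and Msrb1 and Msrb2 lost theirs without model 7 and model 8 (adjusted p = 0.0762 and 0.0612). Thioredoxin itself, Txn1, was at 312 CPM in model and 281 CPM in control and did not pass (adjusted p = 0.657). The most abundant peroxiredoxin, Prdx1, was at 1637 CPM in model and 2382 CPM in control (adjusted p = 0.128). With library totals, 11 genes of the list were called lower.

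Of 12 listed genes of NADPH supply and the pathways around it, 11 were tested. Of these, 4 rose and 1 fell, or 45.5% called, near the 47.9% of all genes. The 4 that rose are enzymes of the pentose phosphate pathway, while Pgls (-0.07, SE 0.26) and H6pd (0.23, SE 0.42), which act in or beside the same pathway, did not pass. G6pdx, the entry enzyme, was at 15.4 ± 3.67 CPM in model and 1.65 ± 1.07 CPM in control (log2 fold change 3.17, SE 0.34), though it overlaps Ikbkg on the other strand over 418 of 3080 exonic bases. Pgd rose by 1.46 (SE 0.24), Taldo1 by 0.75 (SE 0.21) and Tkt by 0.72 (SE 0.20). The cytosolic NADPH sources Me1 and Idh1 did not pass (-0.19 and -0.32). Nadk2, the mitochondrial NAD kinase, fell by 0.71 (SE 0.22), with model 7 and model 8 lowest, at 58.8 and 63.9 CPM. Nnt, the mitochondrial transhydrogenase, was left out by the filter, with 35 counts in all model libraries together and 37 in all control libraries.

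Nqo1, the quinone reductase often used as a readout of NRF2, was low and did not pass. It was at 3.52, 5.55 and 8.52 CPM (lowest, median, highest) in model and 4.21, 5.55 and 8.68 CPM in control. The groups overlap over nearly their whole range. Its fitted log2 fold change was 0.02 (95% interval -0.48 to 0.51, adjusted p = 0.962), and its sign turned in 13 of the 24 alternatives, with no call in any. The interval leaves out a rise of the size of Nfe2l2.

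Other listed targets of NRF2 passed in 5 of 28 cases, 17.9% of those tested, which is less than the 47.9% of all genes. Here 4 rose and 1 fell, and the median was 0.24 on the log2 scale. These counts depend on the libraries and the scaling: 8 were higher and 2 lower without control 6, and 4 higher and 7 lower with library totals. Without model 1, 5, 7 or 8, or without control 5, 2 were lower. Hmox1, the inducible heme oxygenase, averaged 342 ± 159 CPM in model and 17.1 ± 4.44 CPM in control (4.32, SE 0.33). Abcc1, an exporter of glutathione conjugates, rose by 4.31 (SE 0.35) and Fth1, the ferritin heavy chain, by 0.68 (SE 0.18), while Htatip2 fell by 1.15 (SE 0.29). None of the 8 glutathione S-transferases of the alpha and mu classes was called. Gstm1, the most abundant of the mu class here, was at 1176 CPM in model and 998 CPM in control (adjusted p = 0.290), and Gstp1, of the pi class, at 1202 CPM in model and 1799 CPM in control (adjusted p = 0.0541). These transferases and the ferritin genes have close copies, and the files list reads that align to several places apart from the genes, so their levels are uncertain.

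**Figure D3:**
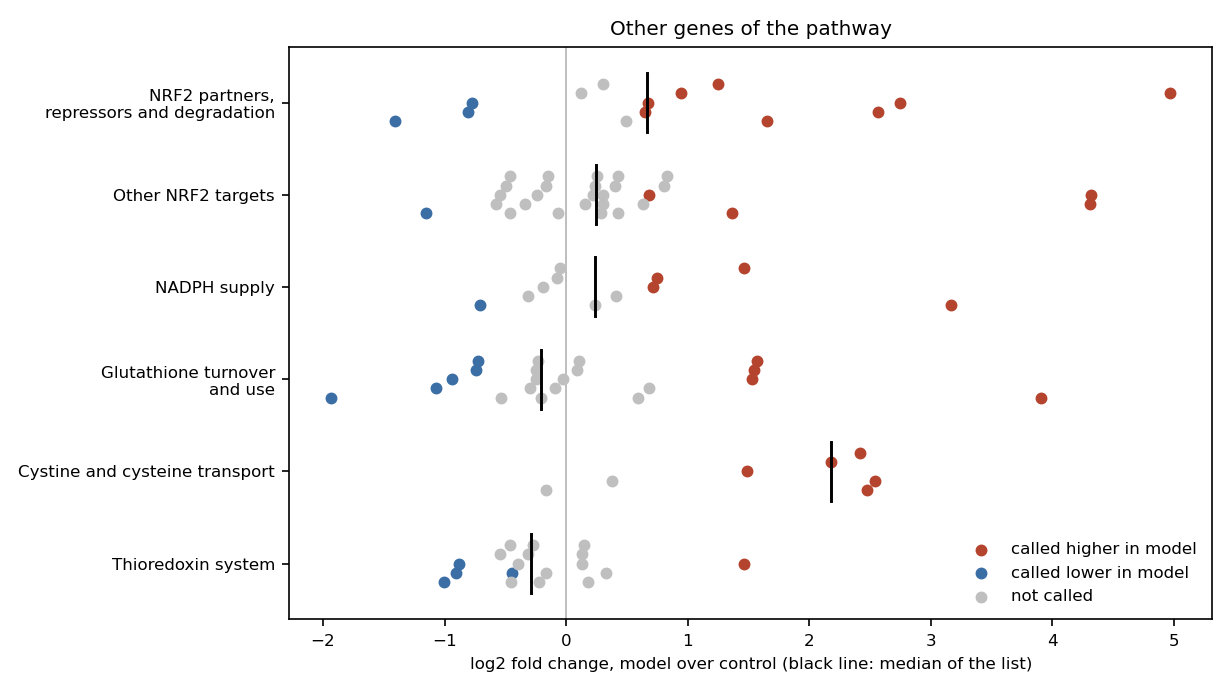
Log2 fold change, model over control, of each tested gene of the 6 further lists, coloured by call, with the median of each list as a black line. The transport list lies furthest to the right, with a median of 2.18, and most of the points of the lists of other targets and of thioredoxin genes are not called.

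Model 7 and model 8 stood apart from the other model livers for a subset of the 10 genes, and also for listed genes outside the 10. In both, 7 of the 10 genes lay above all controls and 1 below, whereas in model 3 and model 4, 3 lay above and 5 below. Srxn1, Txnrd1 and Gclc in model 7 and model 8 were at 628 and 488, 505 and 414, and 516 and 388 CPM, where the highest of the other model livers, model 6, was at 209, 137 and 140 CPM. Sqstm1, the autophagy receptor that can displace NRF2 from KEAP1, was at 1100 and 1090 CPM there, against 112 to 669 CPM in the other model livers and 164 to 261 CPM in controls. Syvn1 was at 99.2 and 98.5 CPM, against 33.7 to 52.2 CPM in the other model livers, and H6pd at 463 and 342 CPM, against 59.5 to 271 CPM. Adh5, at 225 and 212 CPM, and Prdx6, at 259 and 225 CPM, were lowest there, against 284 to 437 and 386 to 518 CPM. Whether the difference is particular to this pathway was not tested. Gclm, at 122 and 101 CPM, stayed within the range of the other model livers, and Nqo1, at 8.52 and 5.66 CPM, did not exceed it beyond rounding. Maff, Hmox1 and Slc3a2 were called with and without both libraries, with log2 fold changes of 5.02, 4.25 and 2.38 without them.

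In the same libraries the summed neutrophil markers were 1260 and 1540 CPM, against 1410 to 2880 CPM in the other model livers. The summed lymphocyte markers were 58.4 and 75.5 CPM, against 94 to 160 CPM, and those of Kupffer cells 354 and 335 CPM, against 422 to 673 CPM. Their hepatocyte markers, at 97500 and 93400 CPM, were within the 88400 to 97600 CPM of the others. The Kupffer cell sum holds markers called higher and markers called lower in model, as given above. Model 7 had the highest total count. Model 7 and model 8 also had the lowest shares of reads not placed uniquely among model libraries (15.1% and 13.9%, against 15.4% to 18.3%) and of reads ambiguous between genes (3.57% and 3.49%, against 3.80% to 4.90%). What sets the libraries apart was not tested, and no label separates them from the other model samples.

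**Figure D4:**
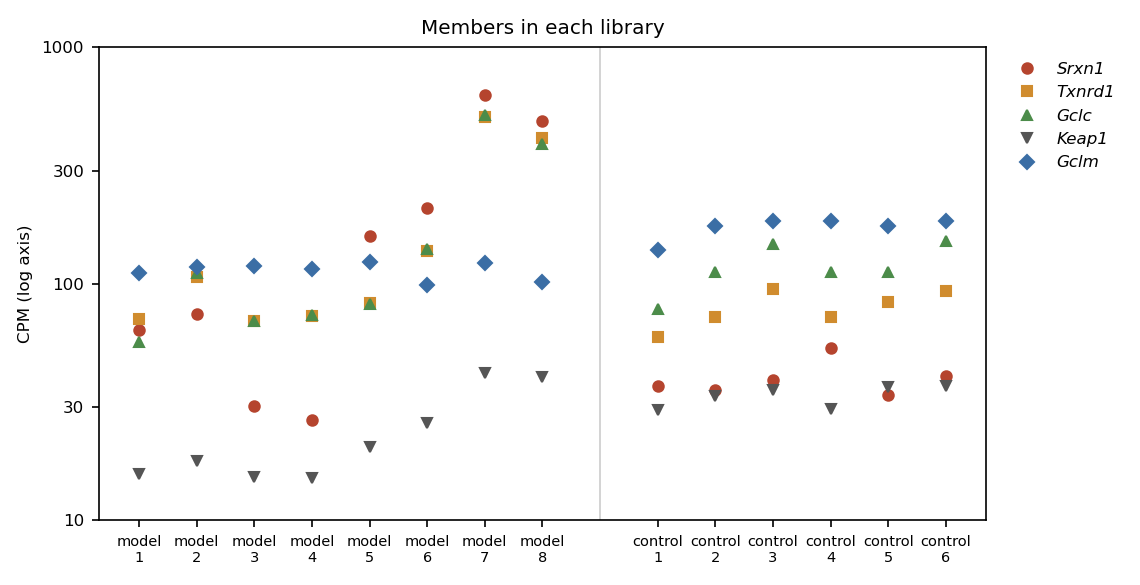
CPM on a log axis of 5 genes in each of the 8 model and 6 control libraries. Srxn1, Txnrd1 and Gclc rise together to between 388 and 628 CPM in model 7 and model 8, Keap1 is also highest there, and Gclm lies between 98.6 and 123 CPM in all model libraries.

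**Figure D5:**
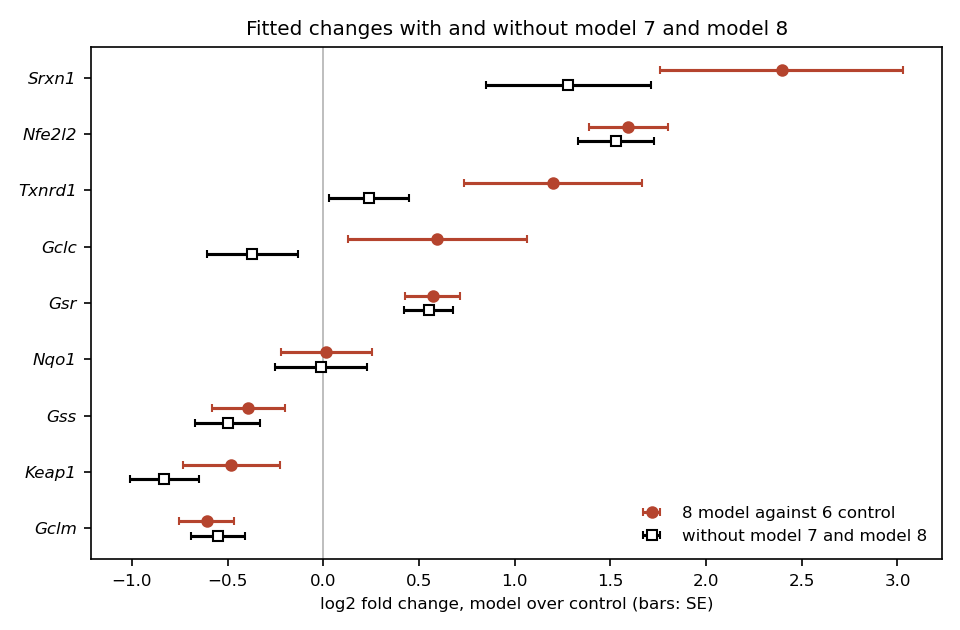
Fitted log2 fold change, model over control, with SE bars, from all 14 libraries (filled circles) and without model 7 and model 8 (open squares); Slc7a11 is left out because it has no control count. Without both libraries Gclc is at -0.37, against 0.60 with them, and Txnrd1 at 0.24, against 1.20, while Nfe2l2, Gsr and Gclm move little.

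Levels between genes can be compared only per length, here as CPM per kilobase of exonic sequence, with lengths from an annotation of GRCm38 matched by gene identifier. In model livers the order by median was Srxn1 (41.3), Nfe2l2 (37.5), Gsr (31.2), Gclc (25.6), Gclm (18.5), Txnrd1 (13.4), Gss (10.1), Keap1 (4.05), Nqo1 (3.57) and Slc7a11 (1.22), and no neighbouring pair was apart in its ranges. In control livers the order was Gclc (29.7), Gclm (28.5), Gsr (21.2), Srxn1 (13.4), Nfe2l2 (12.4), Gss (12.2), Txnrd1 (11.0), Keap1 (7.34), Nqo1 (3.58) and Slc7a11 (0). There, only Txnrd1 and Keap1, Keap1 and Nqo1, and Nqo1 and Slc7a11 did not overlap as neighbours.

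Within groups, the level of some of the 10 genes varied together from library to library. Likeness was the Pearson correlation of log2 CPM after each group's mean was taken off, over 14 libraries that differ in depth. The labels name no batch or day of preparation, and likeness is given as a description. Gclc and Txnrd1 were each other's closest gene among all tested genes at 5 CPM or more, with r = 0.99 over 14 libraries and 0.96 over the 12 left without model 7 and model 8. The gene most like Srxn1 was Lsg1 (r = 0.98, and 0.97 over 12 libraries), and that most like Keap1 was Tollip (0.98, and 0.91). Nfe2l2 was closest to Tsr1 (0.91, and 0.91), Gsr to Gsta1 (0.93, and 0.89), Slc7a11 to Tarm1 (0.93, and 0.93), Gss to Mrps30 (0.96, and 0.93), Gclm to Mxi1 (0.87, and 0.86) and Nqo1 to Traf1 (0.81, and 0.88). Slc7a11 has no control count, so its likeness rests on the model libraries. Among the 45 pairs of the 10 genes, 36 correlations were positive and the median was 0.40, and the lowest was -0.38, for Gclm with Gss. These pair values include model 7 and model 8. No median over pairs of all genes is given, so they cannot be set against a background.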

How the data were processed

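Counts per gene were deposited by the authors as raw read counts, 1 file per sample. Reads were aligned with HISAT2 to GRCm39, per the submitters' processing notes; for the counter, its strand setting and the annotation the sources used here give nothing. The 5 summary lines of each file, 27.4% to 45.6% of a library's entries, were left out. Genes were filtered with filterByExpr and tested with edgeR 4.0.16 in R 4.3.3 (TMM factors, robust quasi-likelihood fit, group as the only term, all 14 libraries), with Benjamini-Hochberg adjustment over 12915 genes and a call at adjusted p under 0.05. CPM used TMM-scaled library sizes, log2 CPM a prior count of 2. SE was taken as the size of the log2 fold change over the square root of F, and 95% intervals use the fit's degrees of freedom. Alternatives used DESeq2 1.42.0 and limma 3.58.1. The fit was tested on simulated counts.

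The members and lists were chosen with earlier results of these data known. Named genes are the 10 members, up to 3 called genes per list and direction at a mean of at least 5 CPM, and the gene most like each member. Others named in the text were chosen after their values were seen. Replicate libraries all differed by more than counting noise (43 pairs, smallest chi-square per degree of freedom 23.3). Lengths, GC content and overlaps came from GENCODE M21 (GRCm38), matched for 99.9% of tested genes.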

Additional observations from a re-analysis of the deposited data

Results flagged for a closer look

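Of 23 sets of values in a group that were checked for a library far from the others, 2 were flagged, and chance flags about 1 in 20. Gclm was at 138 CPM in control 1, against 175 to 184 CPM in the other 5 controls. Srxn1 was at 53.6 CPM in control 4, against 33.8 to 40.7 CPM in the other controls. Model 7 and model 8, which lie close to each other for Gclc, Txnrd1 and Srxn1, are not found by a check for a single far library.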

How the results depend on the processing

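With library totals, 3 members were called higher and 2 lower (5 and 1 in the fit reported), 34 further pathway genes were called lower in place of 14, and over all genes 2533 were higher and 3955 lower in place of 3437 and 2751. Members called higher were 4 with upper-quartile factors, limma-voom or no low-count filter, and without model 7 and model 8. They were between 4 and 5 when any 1 library was left out. Members called lower were 3 with upper-quartile factors, 2 with DESeq2, 3 without model 7 and model 8, 2 with the length and GC offset, and between 1 and 2 when any 1 library was left out, with 2 without model 7 or without model 8. The replicate block gave 3 members higher and 3 lower: Keap1 (-0.90, adjusted p = 0.00261) and Gss (-0.56, 0.0453) were called, and Srxn1 (0.86, 0.15) and Txnrd1 (0.16, 0.581) were not. Replicate numbers did not pair the samples (r of deviations between -0.34 and 0.36 over 6 numbers), and the block has no partner for model 7 and model 8. Gclc turned to -0.37 without model 7 and model 8 and to -0.46 with the replicate block, on the log2 scale. Nqo1, near 0 throughout and never called, turned to -0.2 with library totals, -0.02 with RLE factors and with DESeq2, -0.13 with upper-quartile factors, -0.12 without model 3 and model 4, -0.01 without model 7 and model 8, and -0.09 with the replicate block, and lay between -0.07 and 0.14 when 1 library was left out. The cause was not tested. Over the 10 members and 24 alternatives, 199 log2 fold changes kept their direction and their side of the threshold, 11 gained a call, 15 lost one and 15 turned in sign. Of the counts for the 6 lists, 258 were within 1.5 times the count reported and 30 were not. With 0 counts, the level of Slc7a11 in control is given only as under the floor of 3 counts over the group, 0.0401 CPM.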
